A study of Danio rerio with 6 samples.

Results

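The collagen family was described in poly(A) RNA of zebrafish of strain AB, taken whole at 96 h post fertilization (hpf). Its members were every row of the gene count tables whose symbol begins with col, a number and the letter a. Of 14791 gene symbols, 27 met that rule. One of them, col4a3bpa, is listed in RefSeq as cert1a, a ceramide transporter, and was kept apart, which left 26 collagen genes of 13 types. The samples were 3 PCB-11 pools (4500 µg/L, in DMSO at 0.05% v/v) and 3 DMSO pools (the vehicle alone at the same strength), each made from 18 to 20 eleutheroembryos that had been kept in glass vials of 5. In both groups the chorion had been taken off by hand and exposure began at 24 hpf. The labels name no other allele or agent. PCB-11 is 3,3'-dichlorobiphenyl, a polychlorinated biphenyl with few chlorines. Whether the pools came from separate clutches is not given in the labels, so a p-value here speaks only to pool-to-pool spread, some of it perhaps technical. In pooled whole animals, fewer cells of a type and less RNA per cell cannot be told apart.

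Collagens are proteins of 3 chains wound into a rod. Fibril-forming types (I and V here) build the tension-bearing fibres of skin, tendon and bone, cartilage types (II, IX, X, XI and XXVII) build the matrix of cartilage and, in fish, much of the notochord sheath, and basement membrane types (IV, XV and XVIII) lie in or beside the sheets under epithelia and around vessels and muscle. Type XVII spans the membrane of basal skin cells at their anchoring plaques. Chains are hydroxylated and folded in the endoplasmic reticulum, secreted, trimmed and crosslinked by dedicated enzymes. The 26 genes were sorted by type number into fibril (6 genes), cartilage (12), basement membrane (3), skin (1, col17a1a), short-chain network (2, type VIII) and other (2, type XXVIII). Types IV and XVII had 1 row each. RefSeq names 60 protein-coding genes by the same pattern, and 34 of them, including the main basement membrane pair col4a1 and col4a2 and all type VI, VII and XII genes, were not analysed here. No collagen sequence is given because no sequence table was used here.

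Counts assigned to genes were 15705712 to 20479751 per pool, and 12960 genes passed the expression filter, all 26 collagens among them. Counts per collagen and pool were 21 to 112496. Of the 26 genes, 23 had at least 100 counts in every pool, while col5a3a, col27a1b and col28a1d did not. PCB-11 replicate 2 stood apart from the other pools on the first principal component of all genes. It also had the largest share of reads outside genes (39.1%, against 35.0% and 31.8% in PCB-11 replicates 1 and 3 and 31.4% to 33.4% in the DMSO pools). Because that pool touches most collagen values, they are given with and without it, and its part in them is shown pool by pool. Macrophage markers also divided the pools. The defining marker mpeg1.1 had 1, 6 and 225 counts across PCB-11 replicates 1 to 3, and 2, 177 and 110 counts across DMSO replicates 1 to 3. Of 15 macrophage markers in the tables, 11 passed the filter and lgals9l1 was listed at 0 in every pool. The median log2 difference of the 11 from the DMSO mean was -1.15, -1.01 and 0.69 across the PCB-11 pools, and -0.66, 0.61 and 0.28 across the DMSO pools. The summed level of all 15 markers was 35.4 to 86.6 CPM in PCB-11 pools and 44.2 to 81.8 CPM in DMSO pools. Collagen values with macrophage level as a block are given below.

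Most collagens had lower values in the PCB-11 pools, but no single gene passed the test. The log2 fold change (PCB-11 minus DMSO) was below 0 in 24 of 26 collagens, against 49.8% of all genes tested. Its median was -0.32 over the collagens and 0.0015 over all genes. At a Benjamini-Hochberg adjusted p under 0.05 in edgeR's quasi-likelihood test, 0 of 26 collagens were called, against 0.0463% of all genes (6 of 12960), and the smallest adjusted p was 0.308, for col27a1a. DESeq2 and limma-voom also called 0 collagens. At an unadjusted p under 0.05, 3 collagens were lower (col27a1a, col4a5 and col11a1b), against 6.04% of all genes, and 0 were higher, against 5.8%. All 3 PCB-11 pools lay below all 3 DMSO pools in 9 collagens, against 9.35% of all genes, and above them in 0, against 10% of all genes.

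**Figure D1:**
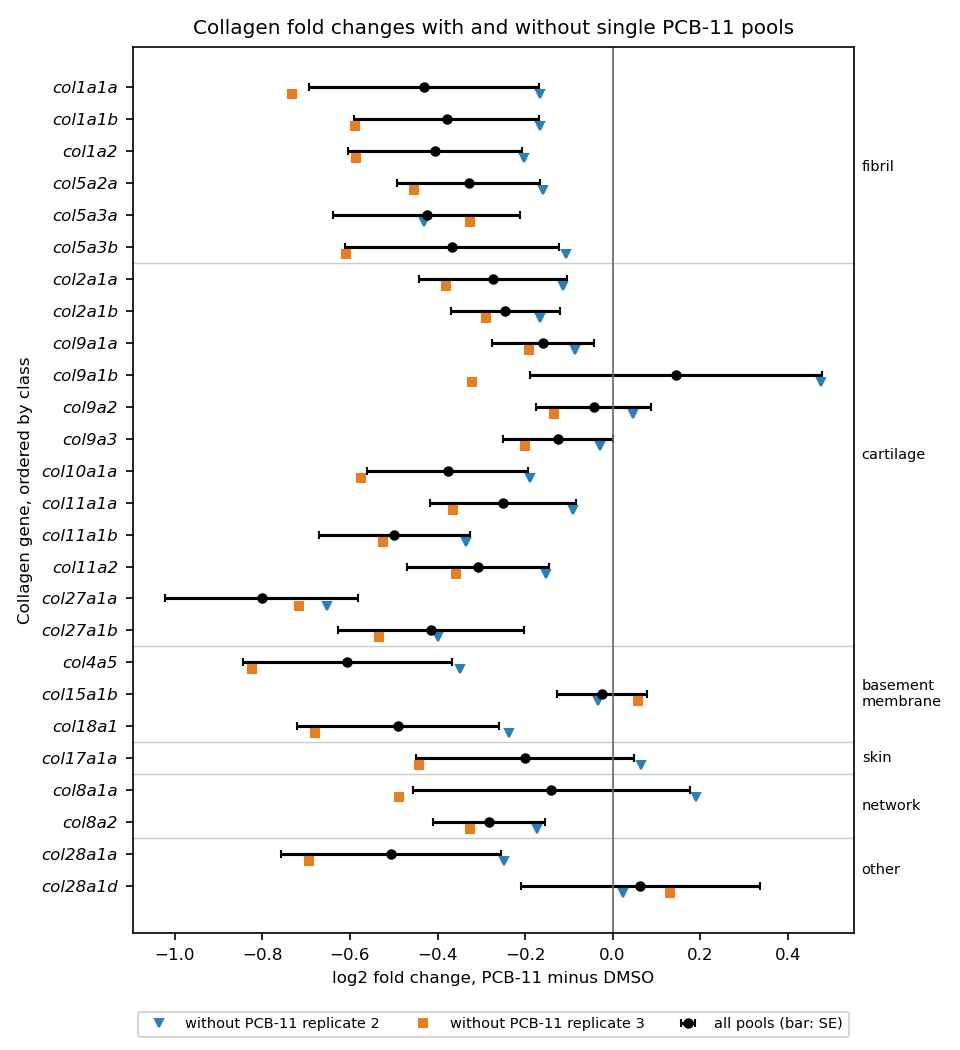
Log2 fold change of each collagen (PCB-11 minus DMSO, x axis) by class, with all pools (black points, bars are SE) and with PCB-11 replicate 2 (blue triangles) or PCB-11 replicate 3 (orange squares) left out. Black points lie below 0 in 24 of 26 genes, and leaving out replicate 2 brings most of them nearer to 0.

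The size of the shift depended in part on PCB-11 replicate 2. Without that pool the median over the collagens was -0.16, with 21 of 26 below 0, and without PCB-11 replicate 3 it was -0.45, with 24 below 0. The same 3 genes were lower at an unadjusted p under 0.05 without PCB-11 replicate 2 (4.69% of all genes), and 1 gene, col9a1b, was then higher. Of all 13028 genes tested in that setting, 1184 had such a p in either direction, so 1 higher gene is given as a value alone. The count of collagens lower at that threshold was 14 without PCB-11 replicate 3, where 11.6% of all genes were lower at it. It was 5 without PCB-11 replicate 1 (7.26% of all genes), 5 without DMSO replicate 1 (4.07%), 2 without DMSO replicate 3 (4.12%) and 1, col27a1a, without DMSO replicate 2 (2.82%). With low against high macrophage marker level as a block, an alternative chosen after seeing the data, 23 of 26 collagens were below 0 and the median was -0.26.

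The PCB-11 pools differed from one another in the collagens. In PCB-11 replicate 2, 24 of 26 collagens lay below every DMSO pool, against 37.5% of all genes, and 0 lay above. In PCB-11 replicate 1, 15 lay below every DMSO pool and 2 above, against 29.5% and 29.2% of all genes. In PCB-11 replicate 3, 12 lay below and 4 above, against 32.6% and 33.8% of all genes. PCB-11 replicate 2 was the lowest of the 6 pools in 22 of 26 collagens, against 28.7% of all genes, and the highest in 0, against 30.9% of all genes. In 3 collagens it lay at least 1 log2 unit under the lowest DMSO pool, against 1.13% of all genes. PCB-11 replicate 3 was the highest of the 6 pools in 4 collagens (col9a1b, col9a2, col17a1a and col8a1a), against 21.2% of all genes. The lowest pool was another one for 4 genes: col5a3a and col15a1b, lowest in PCB-11 replicate 3, col27a1b, lowest in PCB-11 replicate 1, and col28a1d, lowest in DMSO replicate 3. The SD over pools on the log2 scale was larger in PCB-11 than in DMSO in 24 of 26 collagens, against 73.7% of all genes. Its median was 0.34 in PCB-11 pools and 0.13 in DMSO pools for the collagens, and 0.19 in PCB-11 pools and 0.11 in DMSO pools for all genes.

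**Figure D2:**
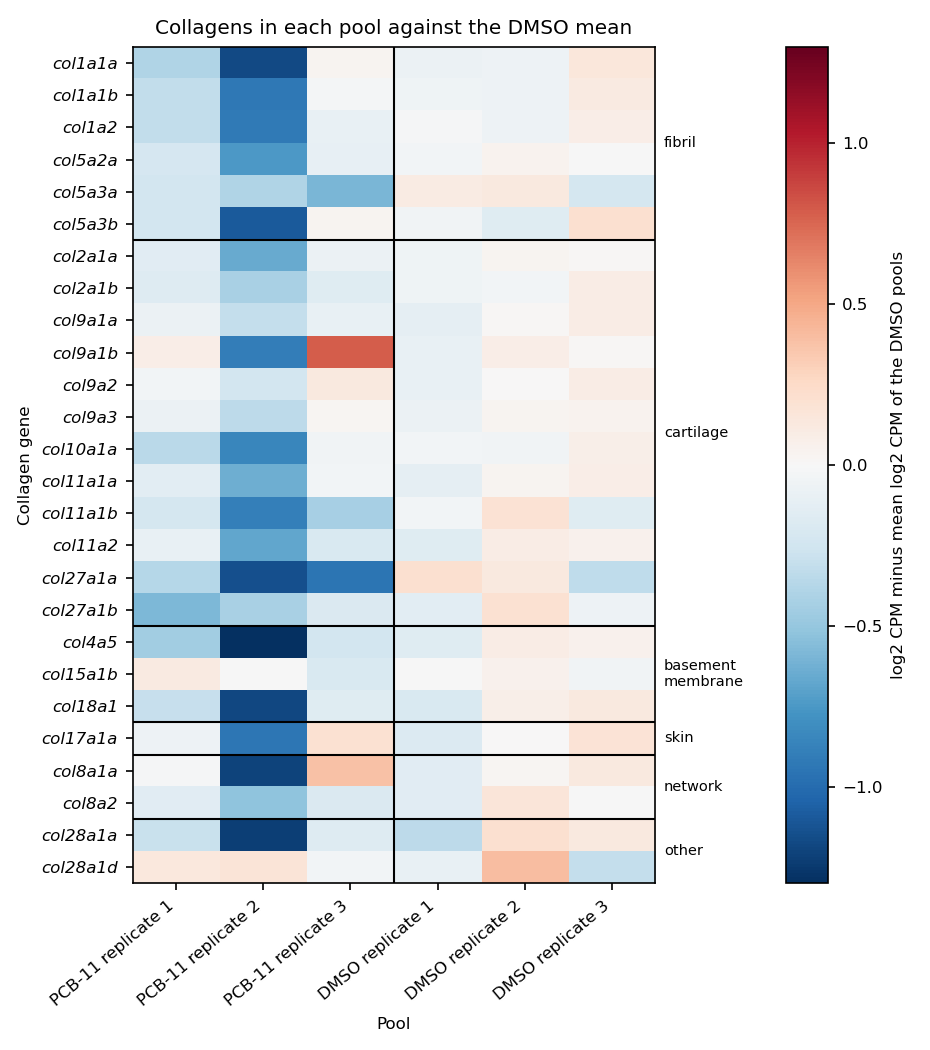
Log2 CPM of each collagen (rows, by class) in each pool (columns) minus the mean of the DMSO pools, blue for lower and red for higher. The column of PCB-11 replicate 2 is blue in all rows but col15a1b (-0.0073) and col28a1d (0.17), and col9a1b in PCB-11 replicate 3 is the deepest red cell.

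The share of all gene counts taken by the 26 collagens was 2.09%, 1.41% and 2.15% across PCB-11 replicates 1 to 3, against 2.2%, 2.39% and 2.5% across DMSO replicates 1 to 3. These shares of unscaled counts did not overlap, but PCB-11 replicates 1 and 3 lay close under DMSO replicate 1 and replicate 2 far below it. With TMM scaling, used for all levels below, the summed collagen level was 20025, 13572 and 23220 CPM in the PCB-11 pools. In the DMSO pools it was 22458, 23433 and 25068 CPM. On that scale PCB-11 replicate 3 lay above DMSO replicate 1, so the groups overlapped. The mean share of unscaled counts was 1.88 ± 0.41% in PCB-11 and 2.36 ± 0.15% in DMSO (SD, n = 3 pools each). The 95% Wilson interval of a pool's share was at most 0.0138 percentage points wide. Intervals of this kind reflect read counting alone, as the labels name no molecular identifiers.

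Fibril collagens had a median log2 fold change of -0.39, and all 6 lay below 0, from -0.43 to -0.33. Type I collagen, the main fibre protein of skin, tendon and bone, is encoded by 3 genes in zebrafish. Levels are TMM-scaled CPM (counts scaled to library size), which does not correct for gene length, so each gene's level is compared between pools. Where a gene is called more or most abundant, this is by CPM and may reflect gene length. The col1a1a transcript had 3935, 2300.5 and 5311 CPM across PCB-11 replicates 1 to 3, against 4892, 4940.4 and 5732 CPM across DMSO replicates 1 to 3. PCB-11 replicate 3 lay inside the DMSO range and replicates 1 and 2 below it. Its log2 fold change was -0.43 ± 0.26 (SE; adjusted p = 0.522 in edgeR).

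The paralog col1a1b had 2455, 1605 and 2998 CPM in the PCB-11 pools, against 2946, 2923 and 3310.4 CPM in the DMSO pools, with PCB-11 replicate 3 again inside the DMSO range (log2 fold change -0.38 ± 0.21). The partner chain col1a2 had 2008, 1322 and 2346 CPM in the PCB-11 pools, against 2469, 2383 and 2664 CPM in the DMSO pools. Here all 3 PCB-11 pools lay below the DMSO pools, replicate 3 by a narrow margin (log2 fold change -0.41 ± 0.20, adjusted p = 0.452 in edgeR). Near-identical stretches of the type I paralogs could exchange reads in the authors' counting, so the split between col1a1a and col1a1b is uncertain.

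Type V chains, which co-assemble with type I and limit fibril width, gave values of the same sign. The values of col5a2a were 503.5, 349.2 and 543.3 CPM in the PCB-11 pools, against 570.03, 603.3 and 580.5 CPM in the DMSO pools, which do not overlap (log2 fold change -0.33 ± 0.16). The 2 other type V rows had log2 fold changes of -0.37 ± 0.25 (col5a3b) and -0.42 ± 0.21 (col5a3a, 34 to 58 counts per pool). Leaving out PCB-11 replicate 2 gave a fibril median of -0.17, and leaving out PCB-11 replicate 3 gave -0.59.

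**Figure D3:**
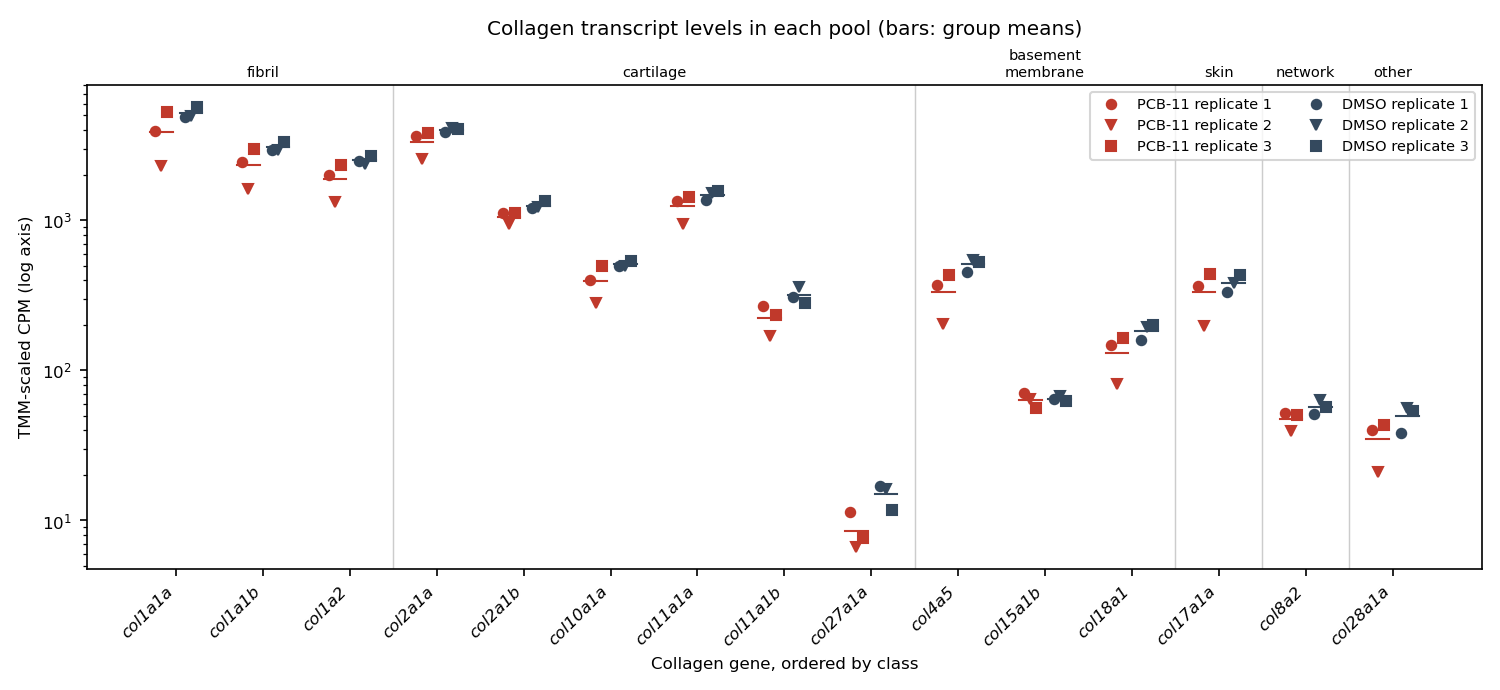
TMM-scaled CPM (log axis) of 15 collagens in each pool, PCB-11 in red and DMSO in dark blue, with symbols for the replicate number and bars for group means. PCB-11 replicate 2 (red triangles) is the lowest point of every gene but col15a1b, and in 6 of the 15 genes no PCB-11 pool reaches a DMSO pool.

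Cartilage collagens had a median log2 fold change of -0.26, and 11 of 12 lay below 0. Type II collagen is the main fibre of cartilage and of the notochord sheath. The col2a1a transcript had 3622, 2546 and 3818 CPM in the PCB-11 pools, against 3874, 4133 and 4063 CPM in the DMSO pools. The paralog col2a1b had 1113, 939.1 and 1126 CPM in the PCB-11 pools, against 1203, 1225 and 1338 CPM in the DMSO pools. In both genes every PCB-11 pool lay below every DMSO pool, with log2 fold changes of -0.27 ± 0.17 for col2a1a and -0.24 ± 0.12 for col2a1b (adjusted p = 0.524 and 0.461 in edgeR).

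Type XI collagen sits at the core of type II fibrils and sets their width. Its chain col11a1a had 1345, 952.3 and 1440.5 CPM in the PCB-11 pools, against 1364, 1514 and 1568 CPM in the DMSO pools (log2 fold change -0.25 ± 0.17). The paralog col11a1b had 269.4, 170.06 and 233.4 CPM in the PCB-11 pools, against 308.6, 358.9 and 283.4 CPM in the DMSO pools. For col11a1b the groups did not overlap, and the log2 fold change of -0.50 ± 0.17 had an unadjusted p of 0.0173 (adjusted p = 0.373 in edgeR). The remaining chain, col11a2, had a log2 fold change of -0.31 ± 0.16.

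The gene with the smallest p of all collagens was col27a1a, which encodes a fibril-forming chain of cartilage and notochord. It had 11.4, 6.63 and 7.64 CPM in the PCB-11 pools (221, 108 and 145 counts), against 17.1, 16.2 and 11.7 CPM in the DMSO pools (298, 311 and 230 counts). PCB-11 replicate 1 lay just under DMSO replicate 3, so the groups parted by a narrow margin. The log2 fold change was -0.80 ± 0.22 (unadjusted p = 0.00527, adjusted p = 0.308 in edgeR), and it was -0.65 without PCB-11 replicate 2 and -1.07 without PCB-11 replicate 1. Over all alternatives its adjusted p was 0.0656 (DESeq2) to 0.825. The paralog col27a1b had 34 to 63 counts per pool and a log2 fold change of -0.41 ± 0.21.

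Type X collagen marks maturing cartilage in mammals and is also made by bone-forming cells in zebrafish. Its gene col10a1a had 400.3, 282.9 and 494.7 CPM in the PCB-11 pools, against 497.1, 494.4 and 538.2 CPM in the DMSO pools. PCB-11 replicate 3 overlapped the DMSO pools by a fraction of a CPM (log2 fold change -0.38 ± 0.18, adjusted p = 0.449 in edgeR).

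Type IX collagen, which decorates the surface of type II fibrils, was the cartilage type with fold changes nearest to 0. Log2 fold changes were -0.04 ± 0.13 for col9a2, -0.12 ± 0.13 for col9a3, -0.16 ± 0.12 for col9a1a and 0.14 ± 0.33 for col9a1b. The last gene, singled out after its values were seen, had 388.4, 195.2 and 629.2 CPM in the PCB-11 pools, against 341.1, 386.9 and 369.01 CPM in the DMSO pools. It was thus the lowest of all pools in PCB-11 replicate 2 and the highest in PCB-11 replicate 3, while its paralog col9a1a had 402.01, 341.3 and 397.9 CPM in the PCB-11 pools, against 391.9, 430.004 and 452.3 CPM in the DMSO pools. The log2 fold change of col9a1b was 0.48 without PCB-11 replicate 2, -0.32 without PCB-11 replicate 3 and -0.02 in limma-voom, so its sign depends on the setting. That of col9a2 was 0.05 without PCB-11 replicate 2. Leaving out PCB-11 replicate 2 gave a cartilage median of -0.13, and leaving out PCB-11 replicate 3 gave -0.36.

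Basement membrane collagens had a median log2 fold change of -0.49 over 3 genes, whose values differed widely. The type IV chain col4a5, whose human counterpart is mutated in Alport kidney disease, had 370.3, 202.9 and 429.4 CPM in the PCB-11 pools, against 455.0, 543.2 and 528.1 CPM in the DMSO pools. All 3 PCB-11 pools lay below the DMSO pools. Its log2 fold change was -0.61 ± 0.24 (unadjusted p = 0.0314, adjusted p = 0.400 in edgeR), -0.35 without PCB-11 replicate 2 and -0.82 without PCB-11 replicate 3. The type XVIII gene col18a1, listed in RefSeq as col18a1a and the source of the endostatin fragment, had 148.6, 80.7 and 163.8 CPM in the PCB-11 pools, against 159.3, 193.2 and 199.7 CPM in the DMSO pools (log2 fold change -0.49 ± 0.23). PCB-11 replicate 3 overlapped the DMSO pools in that gene. It had a log2 fold change of -0.24 without PCB-11 replicate 2.

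The type XV gene col15a1b had another pattern. It had 70.2, 64.4 and 56.4 CPM in the PCB-11 pools, against 64.4, 67.2 and 62.7 CPM in the DMSO pools, so that PCB-11 replicate 2 lay inside the DMSO range (log2 fold change -0.02 ± 0.10). Its sign turned positive when PCB-11 replicate 3 (0.058) or DMSO replicate 2 (0.0023) was left out.

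The skin class held col17a1a alone. It had 362.8, 198.5 and 436.1 CPM in the PCB-11 pools, against 334.8, 381.3 and 429.9 CPM in the DMSO pools, a log2 fold change of -0.20 ± 0.25 (adjusted p = 0.746 in edgeR). PCB-11 replicate 1 lay inside the DMSO range, replicate 2 below it and replicate 3 above it, and without replicate 2 the fold change was 0.064. Differences between the classes were not tested, and with 3 genes and 1 gene the basement membrane and skin medians describe single genes.

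Of the short-chain type VIII genes, which form sheets such as the one under the corneal endothelium, col8a2 had 51.6, 39.6 and 50.1 CPM in the PCB-11 pools, against 51.4, 63.8 and 56.9 CPM in the DMSO pools (log2 fold change -0.28 ± 0.13). For col8a1a the log2 fold change was -0.14 ± 0.32, with 0.19 when PCB-11 replicate 2 was left out. In type XXVIII, col28a1a had 40.03, 20.9 and 43.4 CPM in the PCB-11 pools, against 38.5, 56.5 and 53.5 CPM in the DMSO pools (log2 fold change -0.51 ± 0.25), and col28a1d had 21 to 35 counts per pool and a log2 fold change of 0.06 ± 0.27. The ceramide transporter col4a3bpa had 19.8, 18.98 and 21.1 CPM in the PCB-11 pools, against 16.9, 18.96 and 19.5 CPM in the DMSO pools (log2 fold change 0.11 ± 0.11), with no low value in PCB-11 replicate 2.

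The make-up of the collagen counts was compared within each pool, where library size plays no part. Of the 13 types, the shares of I, II, IX, XI and IV are given here. Type IX genes held 11.97%, 14.1% and 12.03% of collagen counts across PCB-11 replicates 1 to 3, against 10.2%, 10.7% and 10.3% across DMSO replicates 1 to 3, which do not overlap. The type IV gene col4a5 held 1.85%, 1.50% and 1.85% in the PCB-11 pools, against 2.03%, 2.32% and 2.11% in the DMSO pools, which do not overlap either. In both of these types replicates 1 and 3 of PCB-11 lay on the same side of the DMSO pools as replicate 2. Over all genes, on the CPM scale, groups did not overlap in 10% (higher) and 9.35% (lower), and the shares were not tested. Shares are parts of a whole, so a higher type IX share is not a higher type IX level. Only col9a1b of that type had a log2 fold change above 0. Type I genes held 41.9%, 38.5% and 45.9% in the PCB-11 pools, against 45.9%, 43.7% and 46.7% in the DMSO pools. Type II genes held 23.7%, 25.7% and 21.3% in the PCB-11 pools, against 22.6%, 22.9% and 21.6% in the DMSO pools. Type XI genes held 11.4%, 11.6% and 9.89% in the PCB-11 pools, against 10.3%, 11.3% and 10.4% in the DMSO pools. In type I the PCB-11 pools lay on both sides of the lowest DMSO pool, and in types II and XI they lay on both sides of the whole DMSO range. Wilson intervals of these shares were at most 0.405 percentage points wide.

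**Figure D4:**
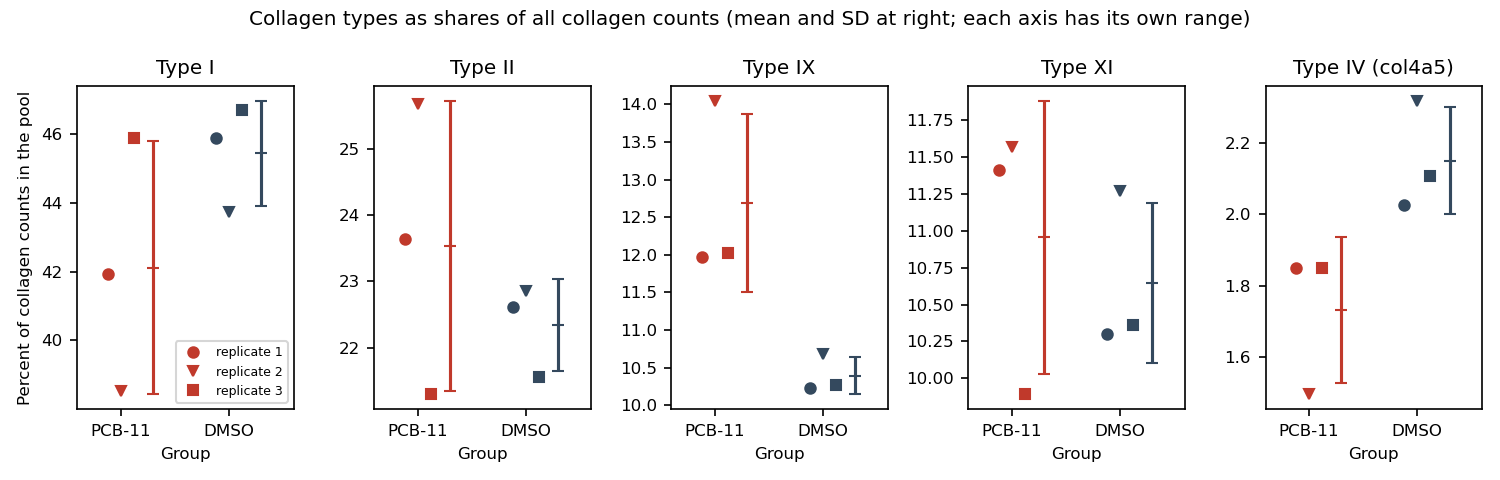
Share of all collagen counts (percent, y axes with separate ranges that do not start at 0) held by types I, II, IX, XI and IV in each pool, PCB-11 in red and DMSO in dark blue, with mean and SD beside the points. The 3 PCB-11 pools lie above the DMSO pools for type IX and below them for type IV.

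Each collagen's log2 difference from its own DMSO mean was set against the median of these differences over the collagens of the same pool. On this scale the DMSO mean is -0.01 for every collagen by construction, so it is not a measured level. Relative to that median, 3 collagens were higher in all PCB-11 pools than in all DMSO pools, and 1 was lower. Over all genes, on the scale not set to the collagen median, groups did not overlap in 10% (higher) and 9.35% (lower), so these counts are near or under the background and are given as values alone. The higher ones were col9a2 (mean 0.31 ± 0.21 in PCB-11 and -0.01 ± 0.03 in DMSO on the log2 scale, SD, n = 3 pools each), col9a3 (0.23 ± 0.20 in PCB-11 and -0.01 ± 0.01 in DMSO) and col11a1a (0.09 ± 0.06 in PCB-11 and -0.01 ± 0.02 in DMSO). The lower one was col4a5 (-0.31 ± 0.19 in PCB-11 and -0.01 ± 0.06 in DMSO). These values were not tested, since the members set the median.

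Log2 ratios between chains were compared by exact permutation tests, in which 3 pools against 3 cannot give a p below 0.1, so none could pass 0.05 and the values are descriptions. The ratio of col1a1a to col1a2 was 0.97, 0.80 and 1.18 in the PCB-11 pools, against 0.99, 1.05 and 1.11 in the DMSO pools (difference -0.07, and 0.03 without PCB-11 replicate 2; exact permutation test, two-sided, p = 0.6). The ratio of col1a1a to its paralog col1a1b was 0.68, 0.52 and 0.83 in the PCB-11 pools, against 0.73, 0.76 and 0.79 in the DMSO pools (difference -0.09, and -0.0073 without PCB-11 replicate 2; exact permutation test, p = 0.5). In both, PCB-11 replicate 2 was lowest and replicate 3 highest. For col9a1a to col9a2 the values were -1.23, -1.25 and -1.40 in the PCB-11 pools, against -1.19, -1.17 and -1.18 in the DMSO pools (difference -0.11, and -0.06 without PCB-11 replicate 3; exact permutation test, p = 0.1). Differences were 0.25 for col11a1a to col11a1b and 0.15 for col2a1a to col1a2 (exact permutation test, p = 0.2 each). Adjusted over the 5 ratios, p was at least 0.333 (exact permutation tests).

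Further ratios, picked with their values in view, carry no test. The log2 ratio of col9a1a to col9a1b was 0.05, 0.81 and -0.66 in the PCB-11 pools, against 0.20, 0.15 and 0.29 in the DMSO pools, so the 2 type IX paralogs parted in opposite ways in PCB-11 replicates 2 and 3. The log2 ratio of col4a5 to col17a1a, both genes of the layer where skin meets its basement membrane, was 0.03, 0.03 and -0.02 in the PCB-11 pools, against 0.44, 0.51 and 0.30 in the DMSO pools. That ratio was as low in PCB-11 replicates 1 and 3 as in replicate 2.

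Genes that make, hold or break down collagen were described from 16 lists of 244 entries in all, markers of tissues included, of which 170 matched a symbol and 160 were tested. No list gene was called in edgeR's test, so the values below are descriptions. For the counts that follow, the shares of all genes were 49.8% below 0, 6.04% lower and 5.8% higher at an unadjusted p under 0.05, and 9.35% with every PCB-11 pool below every DMSO pool. Procollagen hydroxylation genes, which make the chains able to fold and crosslink, had a median log2 fold change of -0.15 (10 tested, 8 below 0). One of them was lower at an unadjusted p under 0.05, p4hb, the protein disulfide isomerase subunit of prolyl hydroxylase. It had 247.1, 228.4 and 243.8 CPM in the PCB-11 pools, against 276.9, 305.6 and 294.2 CPM in the DMSO pools (log2 fold change -0.29 ± 0.10, adjusted p = 0.374 in edgeR). Its PCB-11 pools lay close together and all below the DMSO pools. The lysyl hydroxylase gene plod3 was at -0.27 ± 0.13, and the prolyl isomerase gene ppib, the most abundant of the list, at -0.0090 ± 0.10.

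The folding and secretion list (12 tested, 10 below 0, median -0.18) held 3 genes lower at an unadjusted p under 0.05 (6.04% of all genes). One was sec24d, a coat protein of the vesicles that export procollagen, with 47.8, 29.97 and 42.8 CPM in the PCB-11 pools, against 56.4, 59.5 and 56.6 CPM in the DMSO pools (log2 fold change -0.52 ± 0.16, adjusted p = 0.321 in edgeR). Another was si:ch211-114l13.7, listed in RefSeq as colgalt1b, a collagen galactosyltransferase, with 10.1, 8.11 and 6.48 CPM in the PCB-11 pools, against 11.7, 14.3 and 11.9 CPM in the DMSO pools (log2 fold change -0.62 ± 0.18). In both the groups did not overlap. The remaining one, serpinh1a, a paralog of the collagen chaperone gene, was at -0.24 ± 0.10. The chaperone gene serpinh1b itself had 216.0, 178.5 and 134.3 CPM in the PCB-11 pools, against 253.4, 147.3 and 103.7 CPM in the DMSO pools, so all PCB-11 pools lay inside the DMSO range. The list also counts ostf1 (0.21 ± 0.21), an osteoclast-stimulating factor gene rather than a folding or secretion gene.

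Crosslinking genes (7 tested, 6 below 0, median -0.30) held 2 at an unadjusted p under 0.05, both lysyl oxidase-like enzymes. The loxl2a transcript had 14.8, 8.84 and 14.6 CPM in the PCB-11 pools, against 18.9, 21.7 and 19.4 CPM in the DMSO pools (log2 fold change -0.64 ± 0.19, adjusted p = 0.321 in edgeR). The loxl3a transcript had 7.02, 4.42 and 8.48 CPM in the PCB-11 pools, against 10.1, 9.74 and 9.99 CPM in the DMSO pools (log2 fold change -0.58 ± 0.21). In both genes every PCB-11 pool lay below every DMSO pool, while the more abundant loxl3b was at -0.07 ± 0.12 with overlapping groups.

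Procollagen proteinases (7 tested, 4 below 0, median -0.06), breakdown genes (8 tested, 5 below 0, median -0.01) and fibril-binding proteoglycans (8 tested, 5 below 0, median -0.05) held 0 genes at an unadjusted p under 0.05. The paralogs bmp1a and bmp1b, enzymes that trim the procollagen end, had log2 fold changes of opposite sign, -0.26 ± 0.14 for bmp1a and 0.35 ± 0.16 for bmp1b. Among breakdown genes the gelatinase gene mmp2 was at 0.01 ± 0.15 and mmp14a at -0.09 ± 0.14. The collagenase gene mmp13a was at -0.66 ± 0.40, on 9 to 30 counts per pool and with overlapping groups. The breakdown list also counts 2 genes of metalloproteinase inhibitors, timp2a (0.06 ± 0.10) and timp2b (-0.01 ± 0.14), so its median is not of enzymes alone. Among proteoglycans dcn (decorin) was at -0.21 ± 0.18, epyc (epiphycan) at -0.10 ± 0.18 and fmoda (fibromodulin) at 0.16 ± 0.15.

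Basement membrane partners and collagen receptors had the lowest medians of the enzyme and partner lists. All 12 basement membrane partners lay below 0 (49.8% of all genes; median -0.38), and the 5 with an unadjusted p under 0.05 (6.04% of all genes lower) were the laminin chain genes lama1, lama2, lama5, lamb1a and lamc1. Laminins form the sheet that type IV collagen is joined to. The lamc1 transcript had 177.1, 118.04 and 189.1 CPM in the PCB-11 pools, against 215.5, 243.4 and 232.6 CPM in the DMSO pools, which do not overlap (log2 fold change -0.51 ± 0.17, adjusted p = 0.350 in edgeR). For lama1 the values were 5.68, 4.24 and 3.003 CPM in the PCB-11 pools, against 8.08, 10.1 and 6.01 CPM in the DMSO pools (log2 fold change -0.90 ± 0.26). In lama1, lama5, lamb1a and lamc1 every PCB-11 pool lay below every DMSO pool (9.35% of all genes).

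For lama2, the laminin chain of muscle, the values were 30.7, 13.9 and 19.8 CPM in the PCB-11 pools, against 50.8, 63.6 and 29.96 CPM in the DMSO pools (log2 fold change -1.16 ± 0.32, adjusted p = 0.317 in edgeR). DESeq2 called lama2, along with 0.849% of all genes, but PCB-11 replicate 1 lay above DMSO replicate 3. The most abundant gene of that list, sparc, a collagen-binding matrix protein of many tissues, was at -0.03 ± 0.18, with PCB-11 replicate 3 above the DMSO pools and the other PCB-11 pools below them.

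Of the collagen receptors (5 tested, 4 below 0, median -0.51), the 4 below 0 were all integrin beta 1 genes. The only alpha chain gene tested, itga11a, was at 0.03 ± 0.15 with overlapping groups. The other alpha chain genes of the list and its ddr genes matched no symbol, so the median describes integrin beta 1 genes. The itgb1a transcript had 39.5, 19.96 and 30.6 CPM in the PCB-11 pools, against 45.7, 54.6 and 40.8 CPM in the DMSO pools (log2 fold change -0.65 ± 0.22, adjusted p = 0.366 in edgeR). Its groups did not overlap, nor did those of itgb1b (-0.61 ± 0.23), whereas those of itgb1b.2 (-0.20 ± 0.17) did. Near-identical stretches could exchange reads among these paralogs too.

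Hemidesmosome and anchoring partners, the neighbours of col17a1a, had a median of -0.33 (13 tested, 10 below 0). The hemidesmosome genes of the list had fold changes above 0, which were 0.25 ± 0.12 for the integrin gene itga6b, 0.24 ± 0.19 for its partner chain gene itgb4 and 0.02 ± 0.13 for the plectin gene pleca, all with overlapping groups. The members of the Fraser complex and the fin fold lay below 0. Of these, frem3 had 12.1, 5.34 and 15.5 CPM in the PCB-11 pools, against 15.9, 21.3 and 17.9 CPM in the DMSO pools (log2 fold change -0.73 ± 0.31), without overlap. Its relative frem1a was at -0.49 ± 0.23. The fin fold fibre gene and2 had 563.8, 233.7 and 1071 CPM in the PCB-11 pools, against 761.04, 790.7 and 928.8 CPM in the DMSO pools (log2 fold change -0.41 ± 0.43). For and2, PCB-11 replicate 2 was thus the lowest and PCB-11 replicate 3 the highest of the 6 pools, as in col9a1b and col17a1a.

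**Figure D5:**
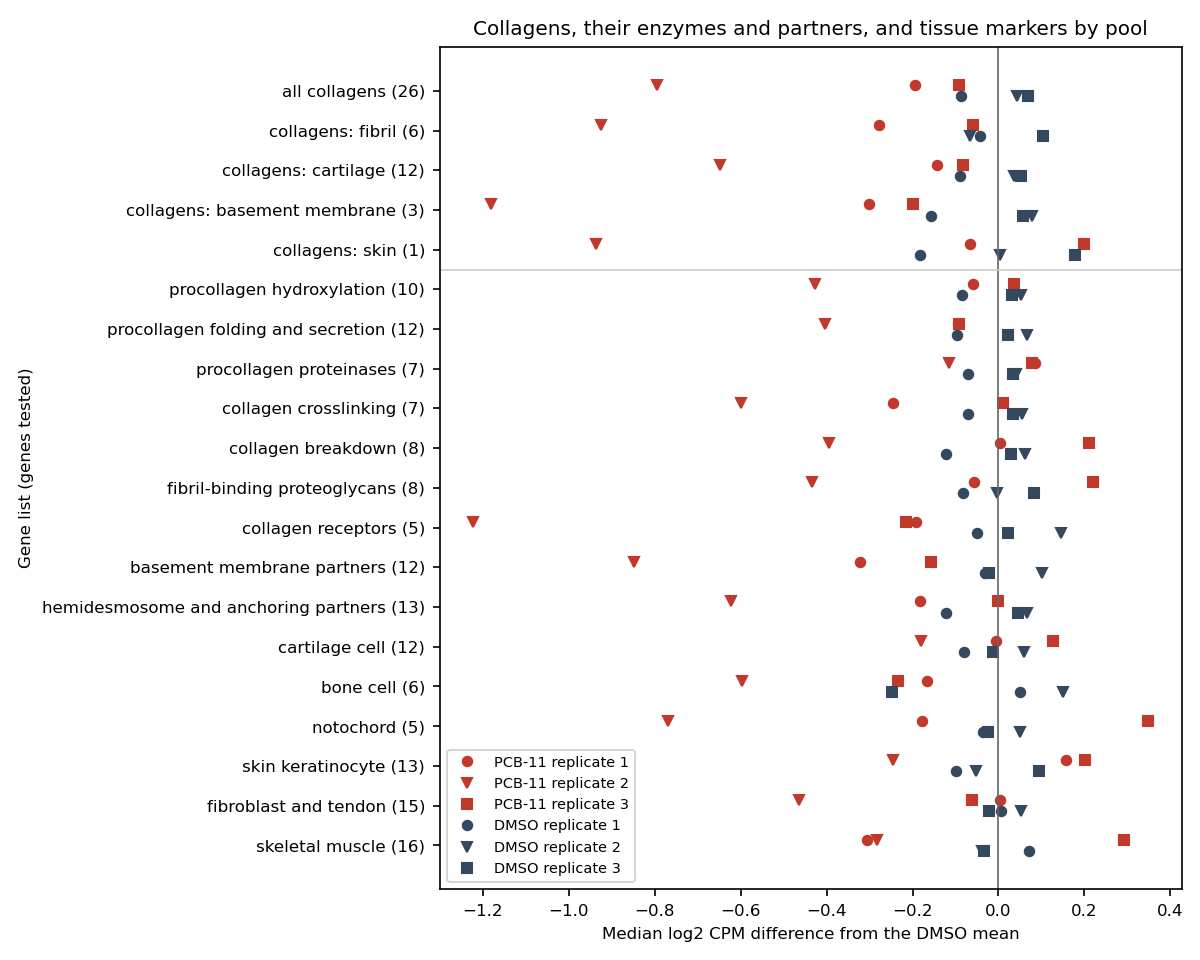
Median log2 CPM difference from the DMSO mean (x axis) for collagen classes, enzyme and partner lists and tissue markers (y axis, genes tested in brackets) in each pool, PCB-11 in red and DMSO in dark blue. PCB-11 replicate 2 is at -0.80 for the collagens. For the tissue markers it is at -0.18 (cartilage cell), -0.25 (skin keratinocyte), -0.28 (skeletal muscle), -0.46 (fibroblast and tendon), -0.60 (bone cell) and -0.77 (notochord).

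Markers of the tissues that make collagen were set beside the classes, and their part in the collagen values was not tested. Cartilage cell markers (12 tested, 7 below 0) had a median of -0.03, against -0.26 for the cartilage collagens. In PCB-11 replicate 2 the cartilage collagens stood at -0.65 and the markers at -0.18. The cartilage matrix gene matn1 had 847.0, 824.4 and 927.8 CPM in the PCB-11 pools, against 797.9, 905.6 and 947.5 CPM in the DMSO pools, with all PCB-11 pools inside the DMSO range. Summed cartilage marker levels were 1985 to 2672 CPM in PCB-11 pools and 2137 to 2377 CPM in DMSO pools. The cartilage factor gene sox6 was lower at an unadjusted p under 0.05 (-0.39 ± 0.15), and the matrix gene matn3b was at 0.66 ± 0.29.

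Bone cell markers had a median of -0.29 (6 tested, all below 0). With the untested ones included, 8 bone markers summed to 73.8 to 109.4 CPM in PCB-11 pools and 107.7 to 114.3 CPM in DMSO pools. The bone-forming cell factor gene sp7 had 13 to 18 counts per PCB-11 pool and 21 to 37 per DMSO pool (log2 fold change -0.90 ± 0.30, adjusted p = 0.366 in edgeR). Its groups did not overlap, at few reads. The mineralisation gene phex was at -0.29 ± 0.16, and the bone markers runx2a and bglap did not pass the filter.

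Fibroblast and tendon markers (15 tested, 11 below 0, median -0.13) stood at 0.0029, -0.46 and -0.06 over PCB-11 replicates 1 to 3. They summed to 1767 to 2760.1 CPM in PCB-11 pools and 2346 to 2570.3 CPM in DMSO pools. They held 3 genes lower at an unadjusted p under 0.05, which were the tendon gene tnmd (-0.35 ± 0.15), the matrix gene tnc (-0.37 ± 0.14) and the microfibril gene fbn2b (-0.54 ± 0.20). The most abundant of them, the matrix gene postnb, was at -0.06 ± 0.18.

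Skin keratinocyte markers (13 tested, 5 below 0) had a median of 0.05 and stood at 0.16, -0.25 and 0.20 over PCB-11 replicates 1 to 3. They held 2 genes higher at an unadjusted p under 0.05, the keratin gene cyt1l (0.39 ± 0.16) and the claudin gene cldne (0.27 ± 0.10). The keratin gene krt4 had 12205, 10288 and 11271 CPM in the PCB-11 pools, against 9922, 9781 and 10866 CPM in the DMSO pools (log2 fold change 0.14 ± 0.14), with PCB-11 replicate 2 inside the DMSO range. In 5 of the 13 markers PCB-11 replicate 2 was the lowest pool, as in col17a1a, against 28.7% of all genes. In the rest a DMSO pool was the lowest. Among the 5 was krt5, with 3675, 2531 and 4900.0 CPM in the PCB-11 pools, against 3457, 3574 and 4111 CPM in the DMSO pools. Another was krtt1c19e, with 2471, 1967 and 2867 CPM in the PCB-11 pools, against 2664, 2433 and 2622 CPM in the DMSO pools. The basal cell factor gene tp63 and the claudin gene cldni had the same lowest pool.

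Notochord markers (5 tested, median -0.16) stood at -0.18, -0.77 and 0.35 over PCB-11 replicates 1 to 3, and skeletal muscle markers (16 tested, median -0.04) at -0.31, -0.28 and 0.29. The notochord markers tested were ta, shha, shhb, cmn and, highest in CPM, the muscle desmin gene desma, so their values are not of notochord alone. Neither list held a gene at an unadjusted p under 0.05. In both lists PCB-11 replicate 3 stood above the DMSO pools, which lay at -0.04 to 0.05 for notochord and -0.04 to 0.07 for muscle markers. The summed muscle marker level was 66209 to 102059 CPM in PCB-11 pools and 78439 to 86244 CPM in DMSO pools. Within muscle, the fast myosin gene myhz1.1 was at -0.47 ± 0.22 and the cardiac-type actin gene actc1b at -0.08 ± 0.22.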

How the data were processed

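The authors deposited a table of raw counts for each pool, with 1 row per gene symbol. The submitters' processing notes name danRer7 and Cufflinks, with no role or version for either. How reads were aligned and counted, with which strand setting and gene models, is not given in the sources used here. Reads outside genes (31.4% to 39.1% of a pool's counts) and ambiguous reads (0.379% to 0.429%) stayed out of library sizes and tests.

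Pools were grouped by sample title and compared with edgeR 4.0.16 in R 4.3.3 (default filter, TMM, robust dispersion, quasi-likelihood F test, two-sided, group only), with Benjamini-Hochberg adjustment over 12960 genes. Standard errors come from the F statistic. Per-pool differences are log2 CPM with a prior count of 2. The script was tested on simulated counts. Chi-square tests found every pair of pools to differ beyond counting error.

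Members and lists were chosen with earlier results of these data known. By rule, pool values are given for the 3 collagens of highest CPM in the fibril, cartilage, basement membrane and skin classes, the highest in each other class, the smallest p in each class and the 6 smallest p in all. From each list the rule names the gene of highest CPM, the 2 of smallest p and any called gene, some of them given here by fold change alone and 1 not reported here. Other genes named, among them col5a2a, the type IX genes, serpinh1a, itga11a, lama5, lamb1a, lamc1, itga6b, itgb4, pleca, krt5, krtt1c19e, tp63, cldni, tnmd and mpeg1.1, were chosen after their values were seen. Alternatives were RLE, upper-quartile and library-size scaling, no filter, a filter of 1 CPM in 3 pools, DESeq2 1.42.0, limma-voom (limma 3.58.1), dispersion without robustness, a replicate block, leaving out each pool and, added after seeing the data, a macrophage block. Figures used matplotlib 3.10.9. RefSeq (GRCz12tu) served for names alone.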

Additional observations from a re-analysis of the deposited data

How the results depend on the processing

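Collagen calls numbered 0 under all 16 alternatives. Of the 240 log2 fold changes of the 15 named collagens under them, 237 kept their sign and none passed the threshold. Those of col15a1b (-0.10 to 0.058) and col17a1a (-0.44 to 0.064) changed sign on leaving out single pools. For col15a1b the value was 0.058 when PCB-11 replicate 3 and 0.0023 when DMSO replicate 2 was left out. Outside the 15 named collagens, signs also changed in col9a1b, col9a2, col8a1a and col28a1d under some alternatives. Besides the change given above, col9a2 turned positive with the macrophage block (0.022) and on dropping DMSO replicate 3 (0.0037). Dropping DMSO replicate 3 also turned col28a1d negative (-0.096). Called genes numbered 110 in DESeq2, 0 in limma-voom (where 1540 genes had a raw p under 0.05), 26 with the replicate block and 0 to 184 on leaving out a pool, against 6. Lower collagens at an unadjusted p under 0.05 numbered 8 with library size alone (5.52% of all genes lower), 9 in DESeq2 (5.54%) and 9 with the replicate block (7.88%). On leaving out a pool they numbered 1 to 14 (2.82% to 11.6%), against 3 with all pools (6.04%). Higher ones numbered 0 to 1 on leaving out a pool, with 1 without PCB-11 replicate 2 (1184 of 13028 genes in either direction). List genes called numbered 1 in DESeq2 (lama2), against 0.849% of all genes, and 0 to 5 on leaving out a pool. The 5 (phex, desma, acta1a, myhz1.1 and myhz2) were called without PCB-11 replicate 3, where 1.41% of all genes (184 of 13012) were called. On leaving out a pool the skin median ran from -0.44 to 0.064, the short-chain median from -0.41 to 0.0091, and the difference in the ratio of col1a1a to col1a2 from -0.16 to 0.027. That of col1a1a to col1a1b ran from -0.16 to -0.0073, col2a1a to col1a2 from 0.09 to 0.21, col11a1a to col11a1b from 0.17 to 0.37 and col9a1a to col9a2 from -0.14 to -0.06. The col9a1b fold change was -0.0022 with the replicate block. The causes were not tested. Replicate numbers were not shown to pair the pools: deviations from the group means correlated at 0.256, -0.147 and 0.367 for numbers 1, 2 and 3 across genes, and PCB-11 replicate 2 correlated best with DMSO replicate 1 (0.23). Other scalings put the median of all genes at -0.0017 to 0.0042, against 0.0015. The count tables limit what can be said of col5a3a, col27a1b and col28a1d, which had few reads.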
